A study of Homo sapiens with 5 samples.

Results

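The DPPA family and naive-state genes are DPPA2, DPPA3, DPPA4, DPPA5, KLF2, KLF4, KLF5, KLF17, TFCP2L1 and TBX3, 10 genes chosen by symbol. Of these, 9 were found among the 33857 genes listed for H9 human embryonic stem cells, and 7 were abundant enough to be tested. KLF17, a zinc finger factor of the human naive state, had no row among the listed genes and was not analysed here. No listed gene was at 0 in every sample, so a gene without a row may have had no reads. The samples, sequenced as poly(A+) RNA, were 2 mock controls and 3 CFIm25-m clones. The labels call the first group control, and the study's mock controls are 2 H9 clones that had received an empty CRISPR/Cas9 vector. The CFIm25-m samples were 3 clones edited with guide RNAs near the start codon of NUDT21, which encodes the mRNA 3' processing factor CFIm25. The labels call them CFIm25 KO, and the study describes knockdown clones that retain a protein with a short N-terminal deletion. Both groups were grown in mTeSR medium. For the gene editing, the study's methods give selection on puromycin before the picking of clones from single cells.

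Pluripotent stem cells can be held in a naive state, which resembles the epiblast before implantation, or in a primed state, which resembles the epiblast after it. Human embryonic stem cells in conventional medium are regarded as primed. KLF2, KLF4, KLF5, KLF17, TFCP2L1 and TBX3 encode transcription factors of the naive network, in which TFCP2L1 and KLF4 act downstream of the cytokine LIF and its effector STAT3. The DPPA genes share a name, developmental pluripotency associated, and not a common protein fold. DPPA2 and DPPA4 encode partner proteins with a SAP domain that bind chromatin, DPPA3 encodes the germline and oocyte protein STELLA, and DPPA5 encodes a KH-domain protein related to RNA-binding proteins.

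The regions just before the start sites of DPPA5, TFCP2L1, DPPA2 and DPPA4 are shown because the first 3 are the tested members with no overlap between the groups, and DPPA4 is the neighbour and partner of DPPA2. Each sequence is the 150 bases before the RefSeq start site (GRCh38.p14), read 5' to 3' on the minus strand, on which all 4 genes lie. Capitals mark the GC box (GGGCGG or its reverse complement CCGCCC) and the CACCC box (CACCC or GGGTG), letters that SP and KLF zinc fingers are known to bind. No capital stretch holds both motifs.
DPPA5 (chr6:73354277-73354426): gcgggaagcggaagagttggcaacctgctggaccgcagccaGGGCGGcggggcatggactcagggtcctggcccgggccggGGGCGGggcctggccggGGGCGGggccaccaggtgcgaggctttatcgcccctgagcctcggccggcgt
TFCP2L1 (chr2:121285203-121285352): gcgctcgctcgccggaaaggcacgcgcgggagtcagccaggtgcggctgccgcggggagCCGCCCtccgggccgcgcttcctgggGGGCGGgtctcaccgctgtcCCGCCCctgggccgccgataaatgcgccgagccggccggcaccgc
DPPA2 (chr3:109316518-109316667): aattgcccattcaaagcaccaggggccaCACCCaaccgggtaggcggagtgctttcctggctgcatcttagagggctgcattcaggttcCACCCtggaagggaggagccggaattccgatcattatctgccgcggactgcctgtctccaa
DPPA4 (chr3:109337547-109337696): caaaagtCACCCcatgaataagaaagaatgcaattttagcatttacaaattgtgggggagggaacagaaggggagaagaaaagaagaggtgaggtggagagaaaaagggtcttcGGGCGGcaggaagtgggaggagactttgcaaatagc

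DPPA5 and TFCP2L1 each held 3 GC boxes and 0 CACCC boxes in this window, DPPA2 held 0 and 2, and DPPA4 held 1 of each. Of 35116 RefSeq promoters, 36.8% held a GC box and 39.6% a CACCC box in the same window, so neither motif is rare. The GC content was 76.7% for DPPA5 and 79.3% for TFCP2L1, against 58% for DPPA2, 46% for DPPA4 and a median of 60% over all promoters. CpG pairs numbered 15, 24, 6 and 2 in DPPA5, TFCP2L1, DPPA2 and DPPA4, and the median was 7. High GC content was not particular to DPPA5 and TFCP2L1. KLF2, whose groups overlap, had 76% GC, 27 CpG pairs and 2 GC boxes. KLF4 had 60.7% GC and 12 CpG pairs, KLF5 had 44% or 71.3% GC by start site, and DPPA3 had 36%. A match is a description of the letters and not a binding site.

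The deposited values, called normalized counts here, are reads scaled by each sample's size factor. Whole reads were recovered from 100% of them, with totals between 18754108 and 23372391 reads per sample. A gene had to reach a normalized count of 10 in at least 2 samples to be tested, which 19232 genes did. The edited gene, NUDT21, had 6503 and 6398 normalized counts in the mock controls against 4035, 3281 and 3400 in the clones, listed in the order of replicates 1, 2 and 3 here and throughout. The log2 fold change of CFIm25-m over mock control, called the log2 ratio in what follows, was -0.86 for NUDT21 (limma-trend, adjusted p = 0.00431). The threshold was an adjusted p of 0.05. By limma-trend 180 genes fell and 181 rose, and scaling by total reads gave 147 and 238. Without CFIm25-m replicate 3 the calls numbered 524 and 520. The p-values cover the spread between these clones. In bulk RNA, fewer cells of a type and less RNA per cell cannot be told apart.

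Embryonic stem cell markers were abundant in both groups. POU5F1, the OCT4 gene, ranged over 30200 to 31427 normalized counts in mock control against 33173 to 38899 in CFIm25-m. Of the 12 tested markers of this list 0 passed limma-trend or edgeR, and DESeq2 called 1, SALL4, lower. At an unadjusted limma-trend p below 0.05 there were 4, all lower in CFIm25-m, against 7.15% of all tested genes lower at that level. The median log2 ratio of the list was -0.20, with 9 ratios below 0 and 3 above, against -0.011 over all tested genes. Of the most abundant, DNMT3B, LIN28A and PODXL, the log2 ratios were -0.33, -0.41 and 0.07 in limma-trend. The defining early endoderm gene SOX17 had a mean of 0.576 normalized counts in mock control and 0.655 in CFIm25-m, and the mesoderm gene TBXT had 6.45 and 3.83. The summed endoderm list ranged over 64.7 to 78.4 in mock control against 83.2 to 114 in CFIm25-m. Of its 8 listed genes 4 were tested and 0 passed limma-trend, edgeR or DESeq2, with 3 log2 ratios above 0 and 1 below. CER1 had the largest means, 28.3 in mock control and 40.2 in CFIm25-m, and its groups overlap. CXCR4 had 13.8 and 4.83 in the mock controls against 20, 27.9 and 23.1 in the clones. It was the 1 endoderm gene with an unadjusted limma-trend p below 0.05 (adjusted p = 0.187). The mesoderm list, summed, ranged over 2634 to 2720 in mock control against 2695 to 3675 in CFIm25-m, nearly all from KDR, and 2 of 7 listed genes were tested. For neuroectoderm the sums were between 12485 and 13204 and between 10519 and 13004, mostly NES, with 3 of 8 tested. The trophoblast and amnion list had sums 183 to 207 in mock control against 166 to 295 in CFIm25-m, mostly KRT7, with 2 of 8 tested. In the last 3 lists 0 genes passed limma-trend, edgeR or DESeq2, and 0 had an unadjusted p below 0.05. The part of these other cell types in the members' values was not tested.

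Set per length, the members spanned nearly 4 orders of magnitude. Levels between genes are given as TPM, the recovered reads divided by the deposited gene length and scaled to the same total in each sample. DPPA4 had 643 and 638 TPM in the mock controls against 573, 569 and 697 TPM in the clones, which placed its mean at percentile 99.2 of all tested genes. DPPA2 followed with 23.7 and 21.4 TPM in mock control and 19.9, 18.4 and 19.3 TPM in CFIm25-m. TFCP2L1 lay between 6.08 and 8.92 TPM over the 5 samples and DPPA5 between 2.39 and 13.6 TPM. These ranges overlap, so the order of TFCP2L1 and DPPA5 is not fixed by the data.

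KLF4 lay between 2.35 and 3.05 TPM and KLF5 between 1.66 and 2.74 TPM, also with overlap. KLF2, at 0.472 to 1.64 TPM, and DPPA3, at 0 to 2.12 TPM, could not be ordered either. TBX3 had the lowest mean and lay between 0.0586 and 0.137 TPM, a range that overlaps that of DPPA3. DPPA4 against DPPA2, DPPA2 against TFCP2L1 and KLF5 against KLF2 were the neighbours in this order whose ranges did not overlap.

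**Figure D1:**
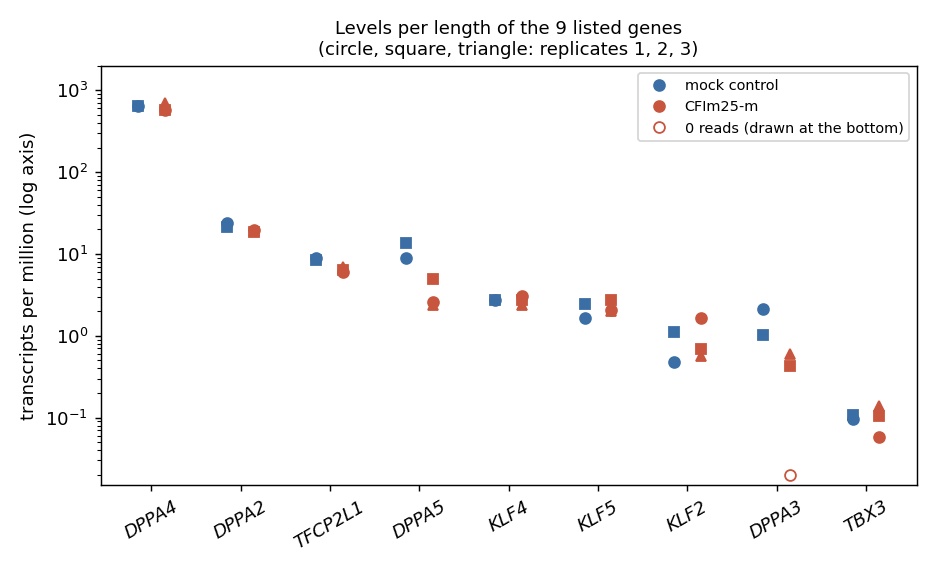
Abundance per length (TPM) of the 9 listed genes on a log axis, ordered by their mean over the 5 samples, with blue symbols for mock control and red for CFIm25-m. DPPA4 is at least 569 in every sample, the other genes reach at most 23.7, and the open symbol is the clone in which DPPA3 had 0 reads.

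None of the 7 tested members passed an adjusted p of 0.05 in limma-trend. The background is 1.88% of all tested genes, of which 0.936% were called lower and 0.941% higher. At an unadjusted p below 0.05 there were 2 members, DPPA5 and TFCP2L1, both lower in CFIm25-m, where 7.15% of all tested genes were lower at that level. On the recovered reads edgeR called 0 members, against 0.905% of all tested genes called lower, and DESeq2 called 1, DPPA5, against 1.61% of the genes to which it gave an adjusted p. Without CFIm25-m replicate 3 limma-trend called 3 members lower, DPPA4, DPPA5 and TFCP2L1, against 2.79% of all tested genes. The median log2 ratio of the 7 tested members was -0.12, against -0.011 over all tested genes. In 3 of the 7, namely DPPA5, TFCP2L1 and DPPA2, every clone lay below both mock controls, which is so for 19.8% of all tested genes. In 0 of the 7 was every clone above both, against 17.0% of all tested genes.

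**Figure D2:**
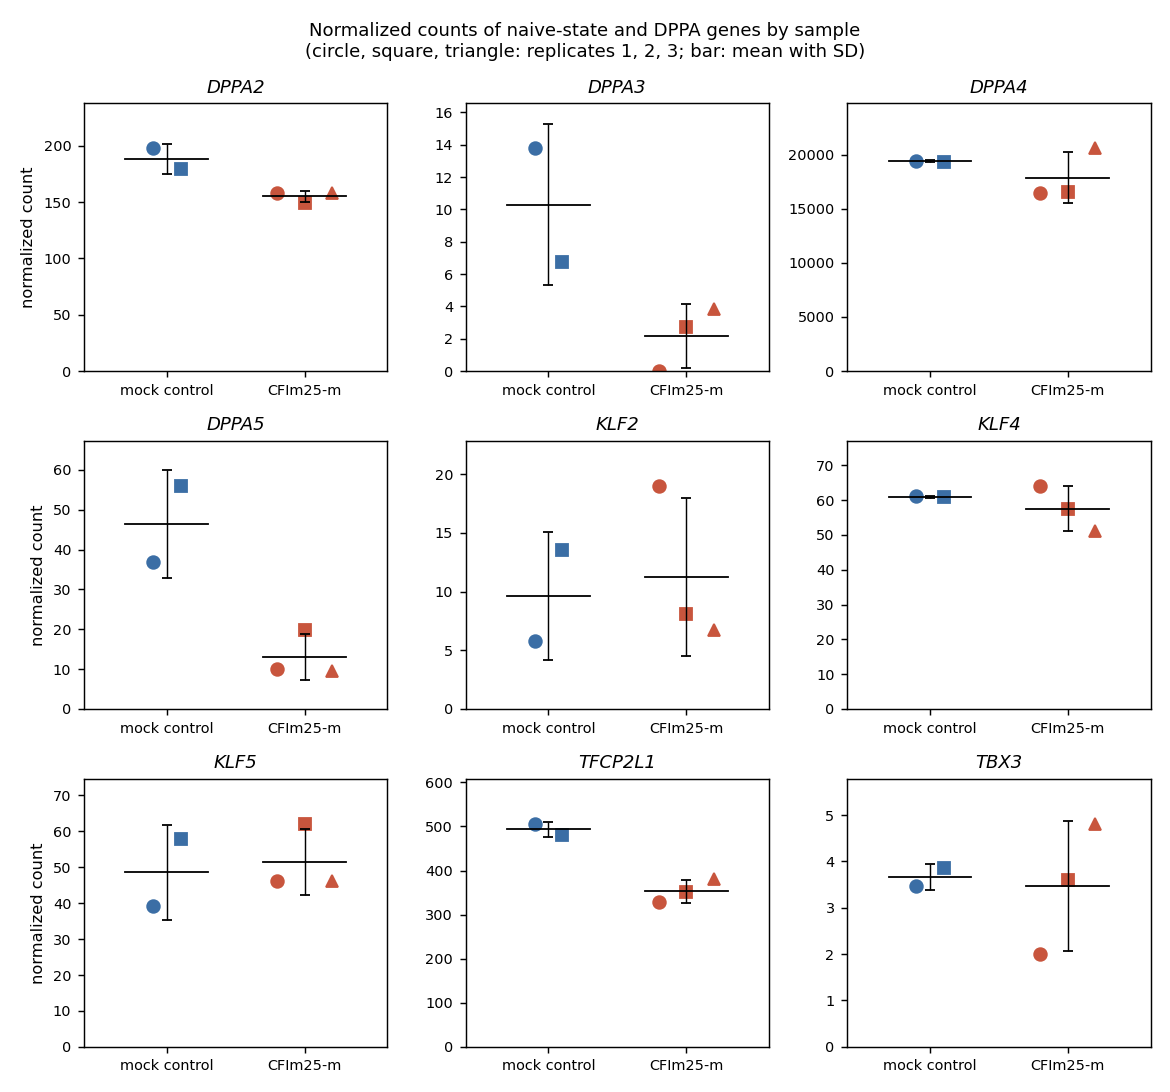
Normalized counts of each gene by sample on axes that start at 0, with the mean and SD of 2 mock control and 3 CFIm25-m samples. In DPPA2, DPPA3, DPPA5 and TFCP2L1 the clones lie below both mock controls, and in the other 5 genes the groups overlap.

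DPPA5 showed the widest difference among the tested members. DPPA5 (ENSG00000203909, minus strand, chr6:73353062-73354295, hg38) had 36.9 and 56.0 normalized counts in the mock controls against 10, 19.8 and 9.62 in the clones. All 3 clones were below the lower mock control, and replicate 2 was the highest of them. The means were 46.4 ± 13.5 (SD, n = 2) and 13.1 ± 5.77 (SD, n = 3). The log2 ratio, on the log2(value + 1) scale, was -1.79 (standard error 0.41, 95% interval -2.70 to -0.87, adjusted p = 0.064, limma-trend), so DPPA5 missed the threshold. These values rest on 32 and 58 reads in the mock controls and on 10, 22 and 10 in the clones.

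Relative to total reads, DPPA5 in CFIm25-m was 0.296 of mock control, with an exact 95% interval of 0.2 to 0.431 that covers counting error only. DESeq2 on the recovered reads gave a log2 ratio of -1.82 (adjusted p = 0.0301) and edgeR gave -1.79 (adjusted p = 0.0606). Without CFIm25-m replicate 3 DPPA5 passed limma-trend (log2 ratio -1.62, adjusted p = 0.0458). With any other sample left out, its adjusted p in limma-trend lay between 0.0548 and 0.555.

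DPPA5 was also a target of RT-qPCR in the study, and the primer pair shows which part of the transcript that assay reads.
Forward: actctcccggcacgtagac
Reverse: agggattcgagatccgtccg
Both matched the 659-base DPPA5 transcript of GENCODE in full. The forward primer covers bases 58 to 76 in exon 1, and the reverse primer is complementary to bases 167 to 186 in exon 2, so the 129-base product spans an exon junction of this 3-exon transcript. The only listed DPPA5 pseudogene, DPPA5P1, differs from the primers at 8 and 3 bases. It had 1.15 and 1.93 normalized counts in the mock controls against 0 in each clone. DPPA5P1 thus holds few reads beside DPPA5.

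Around DPPA5 on chromosome 6 lies a cluster of genes for related KH-domain and oocyte proteins. Only KHDC1 of its other 4 members was abundant enough to test, with a log2 ratio of 0.15 (limma-trend, adjusted p = 0.71). KHDC3L, a component of the oocyte's subcortical complex, had 9 and 6 reads in the mock controls against 3, 6 and 4 in the clones, and OOEP, of the same complex, had 3 and 9 against 5, 3 and 2. KHDC1L had 1 read in each mock control and 0 in each clone. At such depth a difference was not detectable. On the side of DPPA5 away from KHDC1, the nearest tested genes were RPL39P3 and DDX43. In both, every clone lay below both mock controls, which is so for 19.8% of all tested genes. Their log2 ratios were -0.21 and -1.43, neither past the threshold (limma-trend, adjusted p = 0.463 and 0.191). DDX43 had 19 and 38 reads in the mock controls against 14, 6 and 13 in the clones.

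Over the 5 samples, the tested genes whose log2 values ran closest to those of DPPA5, after centring each gene, were CD177, AADACL3 and CRYAB. Their root mean square distances from DPPA5 were 0.112, 0.128 and 0.193 on the log2 scale. CD177, a neutrophil surface glycoprotein, had a mean of 110 normalized counts in mock control and 32.6 in CFIm25-m. These genes were picked by their likeness, from 19232 genes over 5 samples, and no test is attached to it.

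TFCP2L1, a CP2-type transcription factor, had the smallest unadjusted p after DPPA5. TFCP2L1 (ENSG00000115112, minus strand, chr2:121216587-121285207) had 506 and 481 normalized counts in the mock controls against 328, 352 and 380 in the clones. The 3 clones lay close together and below both mock controls. The means were 493 ± 18.0 (SD, n = 2) and 353 ± 26.1 (SD, n = 3), a ratio of 0.716. For TFCP2L1 the log2 ratio was -0.48 (standard error 0.12, 95% interval -0.76 to -0.21, adjusted p = 0.0893, limma-trend), which missed the threshold. DESeq2 gave an adjusted p = 0.0745 and edgeR gave 0.109.

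Without CFIm25-m replicate 3 the log2 ratio of TFCP2L1 was -0.54 and passed limma-trend (adjusted p = 0.0171). Leaving out any other sample gave an adjusted p between 0.132 and 0.743. Of the 6 CP2 and grainyhead genes, all tested, 1 was called lower and 0 higher. TFCP2, the nearest relative, had a log2 ratio of 0.01 (limma-trend, adjusted p = 0.962), UBP1 of 0.14 and GRHL2 of 0.06, both with an adjusted p above 0.5.

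The called gene was GRHL3, a grainyhead factor of surface epithelia. GRHL3 had 151 and 135 normalized counts in the mock controls against 46.1, 33.3 and 43.3 in the clones, a log2 ratio of -1.79 (limma-trend, adjusted p = 0.00577). It passed in 12 of 15 alternatives, and did not without mock control replicate 1 (limma-trend, adjusted p = 0.0912), mock control replicate 2 (adjusted p = 0.0591) or the trend (adjusted p = 0.0511).

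DPPA2 and DPPA4 lie side by side on chromosome 3, 9624 bases apart and on the same strand, and differed in how the clones behaved. DPPA2 (ENSG00000163530, chr3:109293788-109316517) had 198 and 179 normalized counts in the mock controls against 158, 149 and 158 in the clones. The clones were all below both mock controls, and their SD was 5.50. In limma-trend the log2 ratio of DPPA2 was -0.28 (standard error 0.15, 95% interval -0.63 to 0.06, adjusted p = 0.424, limma-trend).

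DPPA4 (ENSG00000121570, chr3:109326141-109337572) had 19435 and 19299 normalized counts in the mock controls against 16472, 16554 and 20609 in the clones. Replicates 1 and 2 lay below both mock controls and replicate 3 above both, so the groups overlap. The log2 ratio of DPPA4 was -0.12 (standard error 0.12, 95% interval -0.40 to 0.15, adjusted p = 0.672, limma-trend). Without replicate 3 it was -0.23 and passed (adjusted p = 0.0209), so this 1 clone decides the call. Counting error is small here, since DPPA4 had at least 16435 reads in each sample.

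The ratio of DPPA4 to DPPA2 in TPM was 27.1 and 29.8 in the mock controls against 28.8, 30.8 and 36.2 in the clones. The highest ratio was thus in the clone with the highest DPPA4. DPPA2P3, the only listed pseudogene of this pair, had 0 normalized counts in all samples but CFIm25-m replicate 3, where it had 1.92.

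DPPA3 was near the limit of detection. DPPA3 (ENSG00000187569, plus strand, chr12:7711454-7717559) had 12 and 7 reads in the mock controls against 0, 3 and 4 in the clones, or 13.8 and 6.76 against 0, 2.70 and 3.85 normalized counts. Every clone was below both mock controls. As 1 sample reached 10, DPPA3 was not tested. Its reads in CFIm25-m were 0.234 of mock control per total reads, with an exact 95% interval for counting error of 0.083 to 0.58, and without the filter limma-trend gave a log2 ratio of -2.03 (adjusted p = 0.329).

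Reads of DPPA3 could also be assigned to copies of it. DPPA3P2 is 98.5% identical to the DPPA3 transcript over 478 bases and shares a run of 137 bases with it, and DPPA3P1 is 97.8% identical over 465 bases. With both copies added, the reads were 12 and 11 in the mock controls against 2, 7 and 5 in the clones, and the groups still did not overlap. With 0 to 4 reads of DPPA3 per clone, the size of this difference is uncertain.

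Among tested genes, those next to DPPA3 are GDF3 and NANOG, genes for a TGF-beta family ligand and a core pluripotency factor. GDF3 had a log2 ratio of 0.29 (limma-trend, adjusted p = 0.686) and NANOG of -0.31 (adjusted p = 0.36). NANOG had 1324 and 1298 normalized counts in the mock controls against 852, 1118 and 1245 in the clones. Among the 34 different tested genes that stood nearest to the 9 members, 2 on each side, 0 passed limma-trend, edgeR or DESeq2. Their log2 ratios lay between -1.43 and 1.83. At an unadjusted limma-trend p below 0.05 there were 6 lower and 1 higher, against 7.15% of all tested genes lower at that level.

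KLF4 and KLF5, zinc finger factors that sustain naive pluripotency in mouse cells, differed by less than the spread between clones. KLF4 (ENSG00000136826, minus strand, chr9:107484852-107490482) had 61.1 and 60.8 normalized counts in the mock controls against 64.1, 57.6 and 51.0 in the clones. The clones lay on both sides of the mock controls. Its log2 ratio was -0.09 (standard error 0.23, adjusted p = 0.893, limma-trend), and its 95% interval covers a fold between 0.658 and 1.35.

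KLF5 (ENSG00000102554, plus strand, chr13:73054976-73077542) had 39.2 and 57.9 normalized counts in the mock controls against 46.1, 62.1 and 46.2 in the clones. The mock controls differed by more than the group means did. KLF5 had a log2 ratio of 0.09 (standard error 0.28, adjusted p = 0.904, limma-trend), with a fold interval of 0.692 to 1.65, and its sign turned when mock control replicate 1 or CFIm25-m replicate 2 was left out.

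KLF2, a factor of the mouse naive state, had few reads in every sample. KLF2 (ENSG00000127528, plus strand, chr19:16324817-16327874) had 5.76 and 13.5 normalized counts in the mock controls against 19.0, 8.10 and 6.73 in the clones, from 5 to 19 reads. CFIm25-m replicate 1 was the highest and the groups overlap. KLF2 had a log2 ratio of 0.18 (standard error 0.56, adjusted p = 0.91, limma-trend), with a fold interval of 0.474 to 2.70, so neither a doubling nor a loss to 0.5 of the level was detectable at this depth.

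The listed pseudogenes of KLF2 held more reads than KLF2. The 4 copies, KLF2P1 to KLF2P4, lie on chromosome 2 within pseudogenes of FAR2 and summed to 164 and 192 normalized counts in the mock controls against 258, 210 and 391 in the clones. They are at most 75.3% identical to KLF2 where they align, and the longest run shared with it is 32 bases, so they are distinct in sequence. KLF2P1 alone had 135 and 162 in the mock controls against 218, 182 and 344 in the clones, a log2 ratio of 0.69 (limma-trend, adjusted p = 0.227). KLF2P4 went the other way in every clone, with 15 and 14.5 in the mock controls against 4.01, 5.40 and 1.92 (log2 ratio -1.79, adjusted p = 0.145, limma-trend). The log2 ratios of KLF2P2 and KLF2P3 were 0.76 and 2.66, and none of the 4 copies passed the threshold. KLF2P3 had 1 and 0 reads in the mock controls against 11, 4 and 14 in the clones. A normalized count of 10 was reached by KLF2P3 only in clones and by KLF2P4 only in mock controls. Their ratios thus rest on few reads and on a filter that each passed through 1 group. KLF2P1 overlaps FAR2P1 on the opposite strand, and no strand setting of the counting is given in the sources used here.

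**Figure D3:**
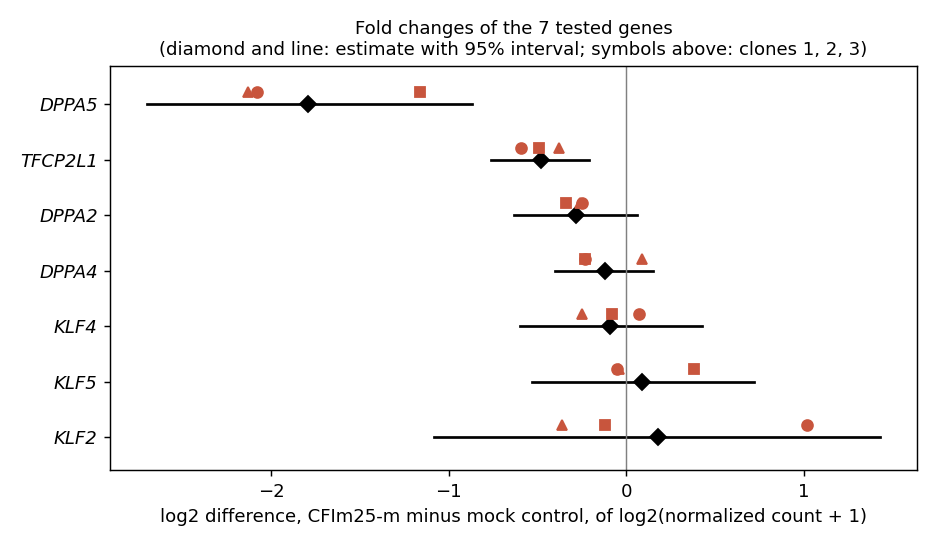
Log2 ratios of the 7 tested genes, with black diamonds and lines for the limma-trend estimate and its 95% interval, and red symbols for how far each clone stood from the mock control mean. The intervals of DPPA5 and TFCP2L1 lie below 0, and those of the other 5 genes include 0.

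Of the 18 Kruppel-like factor genes, 17 were listed and 15 tested. Limma-trend, edgeR and DESeq2 each called 0 of them. At an unadjusted limma-trend p below 0.05 there were 2, both lower, against 7.15% of all tested genes lower at that level. Their median log2 ratio was -0.02, and the values ran from -0.35 in KLF10 to 0.37 in KLF1. KLF13, the most abundant by normalized count, had 2139 and 2063 in the mock controls against 1822, 1872 and 1444 in the clones (limma-trend, adjusted p = 0.274). KLF16 and KLF7, next in level, had log2 ratios of -0.02 and -0.15, neither past the threshold.

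TBX3, a T-box repressor linked to the naive state and to early lineages, was barely present. TBX3 (ENSG00000135111, minus strand, chr12:114670254-114684164) had 3 and 4 reads in the mock controls against 2, 4 and 5 in the clones. The groups overlap, and TBX3 was not tested. Its ratio of CFIm25-m to mock control per total reads was 0.996, with an exact 95% interval for counting error of 0.353 to 3.03.

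In the T-box family, 6 of 16 listed genes were tested and 1 rose. TBX15, a factor known from skeletal and muscle development, had 12.7 and 13.5 normalized counts in the mock controls against 103, 128 and 101 in the clones, a log2 ratio of 2.98 (limma-trend, adjusted p = 0.00047), and passed in all 15 alternatives run for it. MGA, the most abundant T-box gene, had a log2 ratio of -0.07 (limma-trend, adjusted p = 0.774) and TBX6 of -0.26 (adjusted p = 0.606).

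Other genes of the naive state, in a list that also holds general pluripotency genes, were mixed. POU5F1, SOX2, NANOG, SALL4 and TDGF1 are in this list and also among the embryonic stem cell markers above. Of 24 listed genes 20 were tested, 2 were called lower and 0 higher, and the median log2 ratio was -0.33, against -0.011 over all tested genes. At an unadjusted limma-trend p below 0.05 there were 7 lower and 3 higher, where 7.15% of all tested genes were lower. Every clone lay below both mock controls in 10 of the 20 and above both in 5. The shares over all tested genes were 19.8% and 17.0%. ZFP42, the REX1 gene, had 2306 and 2403 normalized counts in the mock controls against 4.01, 3.60 and 0 in the clones (log2 ratio -9.69, adjusted p = 0.000123, limma-trend). The study chose ZFP42 for follow-up on these samples, so its count here is not independent evidence. FGF4, a growth factor of early embryos, had 92.2 and 107 in the mock controls against 10, 15.3 and 31.7 in the clones.

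The log2 ratio of FGF4 was -2.48 (limma-trend, adjusted p = 0.0202), and it did not pass when either mock control, CFIm25-m replicate 1, replicate 2 or limma's trend was left out (adjusted p from 0.0758 to 0.135). Going the other way without passing, ESRRB, a nuclear receptor of the mouse naive network, had 23.1 and 23.2 in the mock controls against 42.1, 53.1 and 53.9 in the clones (log2 ratio 1.06, adjusted p = 0.0961). TFAP2C, an AP-2 factor needed for the human naive state, had a log2 ratio of -0.64 in limma-trend (adjusted p = 0.0901). DESeq2 on the recovered reads called 4 genes of this list lower, ZFP42, FGF4, TFAP2C and the zinc finger gene SALL4, and edgeR called ZFP42 and FGF4. The most abundant genes of this list, POU5F1, TDGF1 and SOX2, had log2 ratios of 0.21, 0.14 and -0.21, all short of the threshold.

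Of 19 primed-state genes, all tested, 3 were called higher, with a median log2 ratio of 0.10. ZIC2 had 1302 and 1326 normalized counts in the mock controls against 3497, 4175 and 3364 in the clones (log2 ratio 1.48, adjusted p = 0.000228, limma-trend). ZIC5, its divergent neighbour and also a zinc finger factor, rose by a log2 ratio of 1.31 (adjusted p = 0.000228). DUSP6, a phosphatase induced by FGF signalling through ERK, had 482 and 514 in the mock controls against 1171, 1852 and 1126 in the clones (log2 ratio 1.43, adjusted p = 0.00584). Without limma's trend DUSP6 did not pass (adjusted p = 0.121). DNMT3B, CD24 and SALL2, the most abundant genes of the list, had log2 ratios of -0.33, 0.12 and -0.09, none past the threshold. DESeq2 also called SFRP2, a secreted WNT antagonist, lower and CDH2, the N-cadherin gene, higher.

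In the LIF and STAT3 pathway, upstream of TFCP2L1 and KLF4 in mouse cells, all 12 genes were tested. Limma-trend called 1 lower and 0 higher, and the median log2 ratio was -0.22. At an unadjusted limma-trend p below 0.05 there were 5, all lower, against 7.15% of all tested genes lower at that level. Every clone lay below both mock controls in 7 of the 12 and above both in 0. Over all tested genes these shares were 19.8% and 17.0%. DESeq2 and edgeR each called PIM1 alone. PIM1, a kinase gene induced by STAT3, had 3500 and 3677 normalized counts in the mock controls against 2081, 2289 and 1742 in the clones (log2 ratio -0.83, adjusted p = 0.00816, limma-trend). It did not pass without mock control replicate 1, mock control replicate 2 or CFIm25-m replicate 1 (adjusted p from 0.0553 to 0.0972), or without limma's trend (adjusted p = 0.129). STAT3 itself had a log2 ratio of -0.12 (adjusted p = 0.604), the receptor gene LIFR of -0.07 and its partner IL6ST of -0.44, neither past the threshold. PIM3, a kinase gene related to PIM1, had a log2 ratio of -0.42 (adjusted p = 0.123). The feedback inhibitor SOCS3 had a log2 ratio of 0.28 (adjusted p = 0.511).

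Several members are also genes of the germ line. Of the 10 primordial germ cell markers, 9 were listed and 6 tested, 1 was called lower and 0 higher, and the median log2 ratio was -0.55. In this list 4 genes had an unadjusted limma-trend p below 0.05, all lower, against 7.15% of all tested genes lower at that level. On the recovered reads edgeR called PDPN lower, against 0.905% of all tested genes. DESeq2 called 3 genes lower, PDPN, TFAP2C and SOX15, against 1.61% of the genes to which it gave an adjusted p. The summed list ranged over 5360 to 5568 normalized counts in mock control against 3785 to 4437 in CFIm25-m, with PDPN and KIT the largest contributors and the defining genes SOX17 and NANOS3 at means of at most 2.24. PDPN, a surface glycoprotein, had 3057 and 2873 in the mock controls against 2242, 2112 and 2108 in the clones (log2 ratio -0.46, adjusted p = 0.0324, limma-trend), and did not pass when either mock control, CFIm25-m replicate 1, replicate 2 or limma's trend was left out (adjusted p from 0.0773 to 0.543). SOX15, a SOX factor of the germ line, had 571 and 605 in the mock controls against 435, 200 and 287 in the clones (log2 ratio -1.01, adjusted p = 0.0928, limma-trend). KIT, a receptor kinase gene, had a log2 ratio of -0.12 (adjusted p = 0.709). The part of germ cell markers in the lower values of DPPA3 and DPPA5 was not tested.

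Early cleavage genes, some of them known targets of DPPA2 and DPPA4 in mouse cells, were scarce. Those without a row may have had no reads, as no listed gene was at 0 in every sample. Of 18 genes 7 were listed and 2 tested, CCNA1 with a log2 ratio of -0.68 and SLC34A2 with 1.36, neither past the threshold in limma-trend (adjusted p = 0.332 and 0.0781), edgeR or DESeq2, and 1 at an unadjusted p below 0.05. ZSCAN4, the best known of them, had means of 0.965 normalized counts in mock control and 2.88 in CFIm25-m. Its reads ranged from 0 to 4 per sample, and its groups overlap. RFPL2, named after its values were seen, had 0 reads in both mock controls and 6, 7 and 14 in the clones. DUXB, also named after its values were seen, went the other way without overlap. Every clone lacked DUXB reads, against 1 and 3 for mock control replicates 1 and 2. Neither RFPL2 nor DUXB was abundant enough to be tested.

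**Figure D4:**
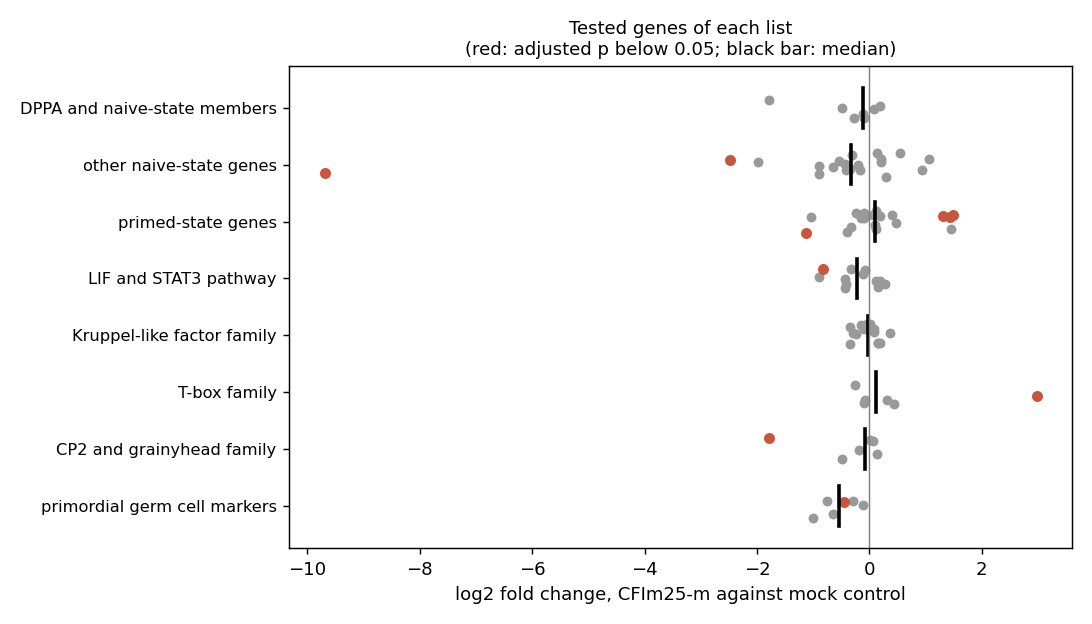
Log2 ratios of the tested genes in each list, with red points for an adjusted p below 0.05 in limma-trend and black bars for the medians. The 7 members have a median of -0.12 and no red point, and the other naive-state genes have a median of -0.33 and 2 red points.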

How the data were processed

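Poly(A+) libraries of 5 H9 samples were analysed, grouped by their titles. The authors deposited 1 table of normalized counts, a signal made of reads per gene scaled by each sample's size factor. The submitters' processing notes name HISAT2, Subread featureCounts, DESeq2 and hg38, without versions or roles. The table also holds group means and the authors' own log2 fold change, p-value and adjusted p-value, none of which was used.

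Values were divided by the value of 1 read to recover counts (100% within 0.01 of a whole number). The study's methods name DESeq2, but the values are normalized, so log2(value + 1) was tested with limma 3.58.1 (R 4.3.3, lmFit and eBayes with trend) on genes with at least 10 in at least 2 samples, Benjamini-Hochberg adjusted over 19232 genes. DESeq2 1.42.0 and edgeR 4.0.16 on recovered reads were alternatives. The main limma-trend fit and the DESeq2 and edgeR fits were tested on simulated data, and the other alternatives were not. The replicate numbers come from titles alone. Deviations of same-numbered samples had correlations of 0.00717 and 0.018, so samples were not paired.

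The members and lists were chosen with earlier results of these data known. The rule named all members, their pseudogenes, called genes and the 3 most abundant tested genes of each list, NUDT21 and the 3 genes most like DPPA5. Of the marker lists for other cell types, only the leading genes and CXCR4 are named, CXCR4 after its values were seen. Other genes were named after their values were seen. Intervals on ratios per total reads cover counting error only, and those of limma-trend the spread between samples. The result for 1 gene of the lists is not reported here.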

Additional observations from a re-analysis of the deposited data

How the results depend on the processing

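The number of members called lower was 0 in limma-trend, 1 with DESeq2, 3 with the replicate block and 0 to 3 with 1 sample left out. The 3 were DPPA4, DPPA5 and TFCP2L1 both with the block and without CFIm25-m replicate 3. The block uses numbers 1 and 2, and CFIm25-m replicate 3, alone with its number, adds nothing to it. With the block the adjusted p was 0.00743 for DPPA4, 0.0048 for DPPA5 and 0.000703 for TFCP2L1, beside 1064 lower and 1043 higher calls among all genes. The samples share only a number, so this is no paired design. Over all genes, limma without its trend called 25 lower and 21 higher, DESeq2 called 315 higher, and leaving out 1 sample gave 33 to 524 lower and 31 to 520 higher. The genes of the fixed lists gave 6 lower and 4 higher calls, against 11 lower with DESeq2, 1 lower without the trend, 24 lower and 17 higher with the block, and 0 to 15 lower and 4 to 12 higher with 1 sample left out. KLF2 turned to -0.37 without mock control replicate 1 and otherwise reached up to 0.45. KLF5 turned to -0.18 without mock control replicate 1 and to -0.05 without CFIm25-m replicate 2, and reached up to 0.37. All other members kept their sign in every alternative run for them, and no scaling turned the sign of any member. The cause of these changes was not tested. Reads limit DPPA3, KLF2 and TBX3, with at most 19 per sample.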
